A study of Homo sapiens with 6 samples.

Results

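Processed pseudogenes and the genes they were copied from were compared between A549 cells with and without silencing of FSCN1. The pseudogenes were chosen by a measured value and by their annotation: rows of the deposited count table with the gene type processed pseudogene and a mean count over the 6 libraries of at least 20. This gave 159 of the 2272 processed pseudogenes in the table, which held 30230 genes in all. Of the 159, 115 carry a symbol made of a parent symbol, a P and a number, and for 110 of these that parent is also in the table. The 110 pseudogenes point to 76 parents. The other 49, most of them named after a genomic clone, have no parent in their name and were assigned only the protein-coding transcript that their sequence matches best. The mean count chose the pseudogenes and is not a result. It was taken over NC and siFSCN1 together, so a pseudogene with few counts in either group could enter through the other. Near the threshold the choice is therefore not independent of the change. Just inside the threshold were EIF4BP6 with a mean count of 20 and ATF4P3 with 20.2, and just outside it CTD-2031P19.4 with 19.8 and RP11-562I5.1 with 19.2.

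A processed pseudogene arises when a messenger RNA is reverse transcribed and inserted elsewhere in the genome, so it lacks the introns of its parent and usually a promoter of its own. Genes that are strongly transcribed in the germ line, ribosomal protein genes above all, have left the most copies. Some copies are transcribed, and because they resemble the parent so closely, short reads from parent messenger RNA can also be placed on them.

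The libraries came from A549, a line of human lung adenocarcinoma cells. In the NC group (3 libraries) the cells received a negative control, called a control plasmid in the labels and a scrambled siRNA in the study's text, and in the siFSCN1 group (3 libraries) siRNA silenced FSCN1, which encodes fascin, a protein that bundles actin filaments. Polyadenylated RNA was sequenced. The study's text calls the 3 libraries of a group biological replicates, while the labels do not say whether they came from separate cultures. The p-values measure the spread between these libraries, and 1 cell line stands behind all of them. By the study's text a single siRNA against FSCN1 and a single time after transfection were used for them. Effects of silencing FSCN1 and other effects of that siRNA cannot be told apart here. Library totals lay between 27967301 and 36560919 counts. FSCN1 itself had 6107, 5788 and 7265 counts in NC and 628, 390 and 450 in siFSCN1, a log2 fold change of -3.89 ± 0.09 (SE, n = 3 and 3). The epithelial markers KRT8, KRT18, KRT7, KRT19, EPCAM and CDH1 had at least 269 counts in each library, the leukocyte and endothelial markers PTPRC and PECAM1 at most 8, and of the fibroblast collagens COL1A2 had at most 4 while COL1A1 had 73 to 133. The alveolar genes SFTPC (7 to 13 counts) and NKX2-1 (0 to 5) were near absent. In bulk RNA, fewer cells of a kind and less RNA per cell cannot be told apart.

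How closely pseudogene and parent resemble each other decides how far reads can separate them, so the sequences behind the main results are shown first. Positions and sequences are of GRCh38 with GENCODE v44, where 158 of the 159 were found. RPSAP58 was not placed. Over 109 pairs the identity of the pseudogene to its parent transcript had a median of 98.4% (83.1% to 100%). Of 106 pairs long enough to hold a window of 150 bases, 37 had no such window that occurs without a difference in a parent transcript, and in 5 every window did. The median pseudogene had 9.69% of its windows in the parent. The first set shows 90 bases of the coding sequence of RPS2, a protein of the small ribosomal subunit, from base 330 of the coding sequence, with the same stretch of its 3 pseudogenes. Capitals mark bases that differ from the parent. RPS2 lies at chr16:1962866-1963194 (minus strand), where the stretch spans an intron, RPS2P5 at chr12:118246413-118246502 (plus strand), RPS2P46 at chr17:19446433-19446522 (minus strand) and RPS2P32 at chr7:23490809-23490898 (plus strand). RPS2P5 and RPS2P46 differ from RPS2 at 2 and 1 of the 90 bases and RPS2P32 at 12.
RPS2: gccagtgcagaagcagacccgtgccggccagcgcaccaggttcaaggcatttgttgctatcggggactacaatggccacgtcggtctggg
RPS2P5: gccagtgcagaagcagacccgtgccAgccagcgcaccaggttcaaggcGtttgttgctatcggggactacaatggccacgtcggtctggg
RPS2P46: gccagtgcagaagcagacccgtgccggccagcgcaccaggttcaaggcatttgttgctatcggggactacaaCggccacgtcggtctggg
RPS2P32: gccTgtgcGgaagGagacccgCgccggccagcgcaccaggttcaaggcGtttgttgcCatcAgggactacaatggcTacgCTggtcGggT

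The next set is from RPSA, a small subunit ribosomal protein also known as the laminin receptor, from base 154 of its coding sequence. RPSA lies at chr3:39408626-39408715 (plus strand), RPSAP12 at chr12:68553640-68553729 (minus strand), RPSAP15 at chrX:87703988-87704077 (minus strand), RPSAP19 at chr1:101786981-101787070 (minus strand) and RPSAP9 at chr9:76398852-76398941 (plus strand). Each of the 4 copies differs from RPSA at 2 of the 90 bases.
RPSA: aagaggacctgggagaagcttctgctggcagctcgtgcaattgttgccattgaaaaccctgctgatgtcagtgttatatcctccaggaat
RPSAP12: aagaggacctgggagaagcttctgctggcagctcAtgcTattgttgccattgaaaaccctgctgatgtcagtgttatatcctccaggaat
RPSAP15: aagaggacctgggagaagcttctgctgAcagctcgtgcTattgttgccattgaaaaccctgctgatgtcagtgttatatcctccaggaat
RPSAP19: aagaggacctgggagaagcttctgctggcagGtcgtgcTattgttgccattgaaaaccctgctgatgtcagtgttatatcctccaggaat
RPSAP9: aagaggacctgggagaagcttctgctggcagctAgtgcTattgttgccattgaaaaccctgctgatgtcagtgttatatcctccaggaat

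RPS28 and RPS28P7 are the opposite case, since the whole of RPS28P7 (210 bases, chr11:82689559-82689768 (plus strand)) equals the RPS28 coding sequence (chr19:8321531-8322075 (plus strand), with introns between). No read that lies within these bases can separate them.
RPS28P7: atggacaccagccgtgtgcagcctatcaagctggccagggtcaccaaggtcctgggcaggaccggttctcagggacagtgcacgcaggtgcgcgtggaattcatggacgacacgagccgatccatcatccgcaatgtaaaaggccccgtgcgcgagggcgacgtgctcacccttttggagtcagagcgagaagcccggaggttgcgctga

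Most of the processed pseudogenes had fewer reads after silencing of FSCN1. Their median log2 fold change (siFSCN1 against NC) was -0.51, which is 70.5% of the NC level, against 0.03 over the 17076 genes tested, and 130 of the 159 had a value below 0. The parents had a median of -0.40. All 159 passed the filter on low counts, so none was left out of the test. By edgeR's quasi-likelihood test with adjustment over all genes tested, 88 pseudogenes fell and 11 rose at an adjusted p under 0.05. The remaining 60 did not pass. Among all genes tested 33.2% fell and 35.1% rose at that threshold. With library totals in place of TMM scaling, 57 pseudogenes fell and 15 rose, while of all genes 22.4% fell and 46.7% rose. The CPM (counts scaled to the size of each library, with TMM factors) of NC and siFSCN1 did not overlap for 97 pseudogenes, which is 61.0%, while this held for 71.3% of all genes tested. At the further requirement of a change of at least 2-fold, 9 pseudogenes were lower and 7 higher, 5.66% and 4.40% of the 159, with 4.85% and 11.7% in all genes tested. Without siFSCN1 replicate 2 or without siFSCN1 replicate 3, 14 were lower.

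For comparison, protein-coding genes in the same range of mean counts (11876 genes) had a median of -0.01 and long noncoding RNAs in that range (1791 genes) one of 0.32, with 22.8% called higher by at least 2-fold. Processed pseudogenes that the annotation marks as transcribed (68 genes) are a separate class in the table. Not limited to that range of mean counts, this class had a median of 0.55 with 21 called higher and 1 lower. With library totals the median of all genes moved by 0.19, from 0.03 to 0.22, and that of the 159 pseudogenes to -0.32. Relative to the median of all genes the pseudogenes lay at -0.54 under both scalings. The change of scaling moves all genes by nearly the same amount, so this agreement was fixed in advance. With library totals the calls of at least 2-fold were 7 higher and 6 lower, so that 53.8% of calls were higher in place of 43.8%.

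All counts on the 159 pseudogenes together made up 0.0980%, 0.103% and 0.1003% of the NC libraries and 0.0764%, 0.0840% and 0.0751% of the siFSCN1 libraries. The 3 siFSCN1 libraries all lay below the 3 NC libraries. The means were 0.1003% ± 0.00233 and 0.0785% ± 0.00481 (SD, n = 3 each). A two-sided exact permutation test gave p = 0.1, and no smaller p is possible with 3 libraries a group. The 76 parents held 12.4% ± 0.147 of the counts in NC and 10.1% ± 0.270 in siFSCN1. Of the counts on pseudogenes, 33.99% were those of 3, RPS2P5, EEF1A1P5 and RPS28P7. Without RPS2P5 the shares were 0.0814% and 0.0700%.

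By the role of the parent, the 31 pseudogenes of large ribosomal subunit proteins had a median log2 fold change of -0.63. Of these 26 fell, none rose at the adjusted p and 5 did not pass. All 22 of their parents fell (median -0.43), though with library totals RPL12 and RPL22 had 0.08 and 0.03. The 18 pseudogenes of small subunit proteins had a median of -0.40, with 12 lower, 1 higher (RPSAP9) and 5 that did not pass. With DESeq2 10 of them were lower and 0 higher. The 8 parents of these pseudogenes all fell (median -0.45), though RPS28 had 0.04 with library totals. With library totals 17 of the 31 and 5 of the 18 passed as lower, and of the parents 19 of 22 and 5 of 8. Both groups of pseudogenes then still had medians below 0 (-0.45 and -0.21). RPL12 then passed as higher (adjusted p = 0.0306, edgeR), and so did the pseudogene RPL22P2 (0.84, adjusted p = 0.0213, edgeR).

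Pseudogenes of translation factors (11, median -0.59) fell in 6 cases and did not pass in 5. With library totals 3 fell, and with DESeq2 4. The 8 copies of the ferritin genes FTH1 and FTL, which encode the iron storage complex, had a median of -0.64 with 5 lower and 3 that did not pass. For RNA-binding and spliceosome proteins 4 of 7 fell, for mitochondrial and respiratory proteins 4 of 6 (2 with library totals and 1 with DESeq2), and for chaperones and folding enzymes, which here are the cyclophilin PPIA and HSPB1, 2 of 4. Glycolysis and other metabolism had 1 lower of 3, GAPDHP1 at -0.91. The only pseudogene of the keratins or of the actins ACTG1 and ACTB in the set, KRT8P3, fell by 0.85 ± 0.17 (SE, n = 3 and 3) on the log2 scale at an adjusted p of 0.00018, and KRT8 by 0.88. KRT8P3 had 5.16, 3.42 and 4.26 CPM in NC and 2.70, 2.31 and 2.12 CPM in siFSCN1, without overlap. The 49 pseudogenes with no parent in the name had a median of -0.28, with 18 lower and 9 higher. With library totals this median was -0.09, with 10 lower and 10 higher.

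**Figure D1:**
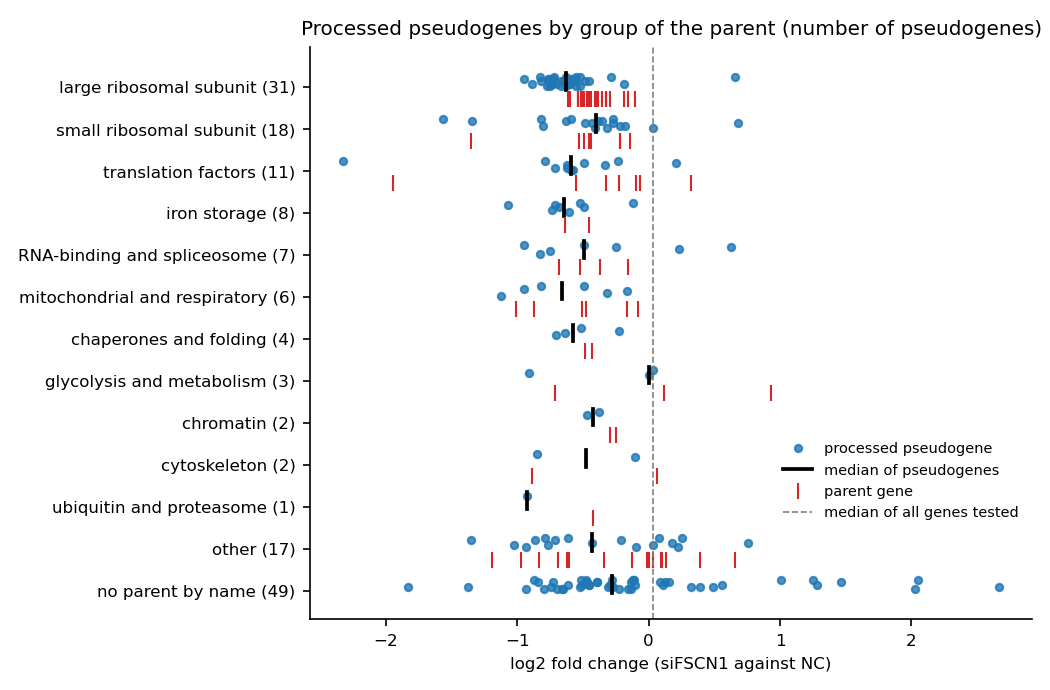
Log2 fold change (siFSCN1 against NC, x axis) of each of the 159 processed pseudogenes (blue points, black bar at the median) by group of the parent, with the 76 parents as red ticks and the median of all genes tested (0.03) as a dashed line. In both ribosomal groups most pseudogenes and all parents lie left of 0, and the points right of 1 are pseudogenes with no parent in their name.

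Pair by pair, most pseudogenes changed in the direction of their parent. Of the 110 pairs, 93 had a parent that fell, and in 70 of these the pseudogene fell too, in 22 it did not pass and in 1 it rose. The sign of the log2 fold change was the same in 102 of the 110. Since 96 of the 110 pseudogenes and 64 of the 76 parents lay below 0, most pairs would share a sign without any link. Across the 110 pairs both fold changes had a Pearson r of 0.70 and a Spearman rho of 0.70, values across genes that share the same 6 libraries and often the same parent, given as a description. Without the RPS2 and EIF5A pairs, which had the largest falls, r was 0.68 (106 pairs). Parent reads placed on a pseudogene would also bring both fold changes together, which was not tested. No pseudogene with a parent in its name rose by at least 2-fold, and 7 fell by that much: edgeR gave 0 higher, also at an unadjusted p under 0.05, and DESeq2 gave 0. Among all genes tested 11.7% were called higher. The 7 lower are 6.36% of the 110, near the 4.85% of all genes tested.

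**Figure D2:**
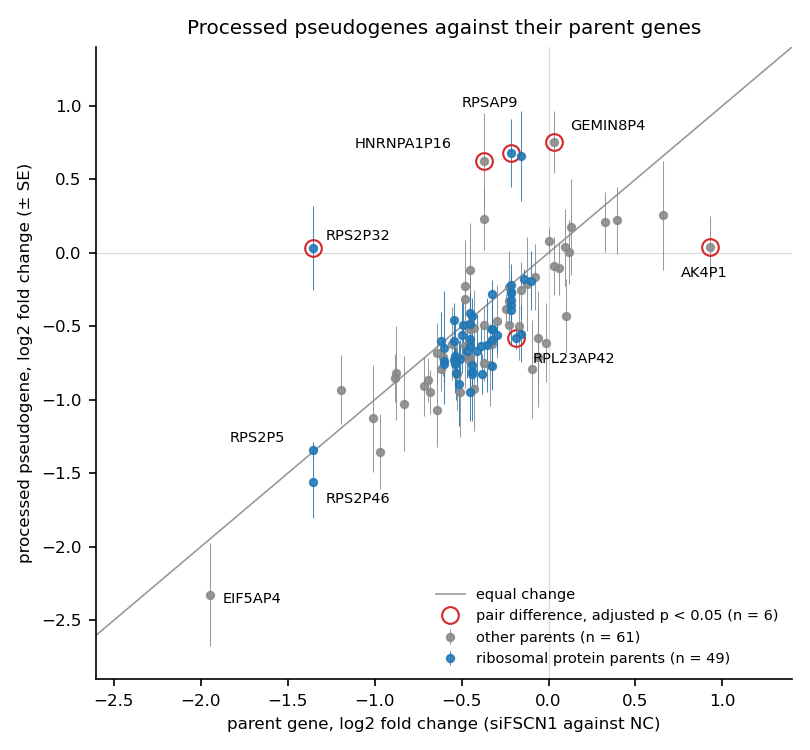
Log2 fold change of each pseudogene (y axis, bars are ± SE) against that of its parent (x axis) for 110 pairs, with ribosomal protein parents in blue and the line of equal change in grey. Most points lie along and slightly below the line, and the 6 pairs circled in red, among them RPS2P32 far above it, passed the test of the pair difference.

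The difference itself was tested with limma on log2(pseudogene/parent) per library, in which the scaling of the libraries cancels. The change of this ratio, siFSCN1 minus NC, had a median of -0.15 on the log2 scale, with a middle range of -0.27 to -0.03 and extremes of -0.84 and 1.401. In 87 of 110 pairs it was below 0. The median corresponds to 89.97% of the NC ratio. When 1 library was left out, this median ranged from -0.23 (without siFSCN1 replicate 2) to -0.10 (without NC replicate 2). Replicates of NC varied by a median SD of 0.17 and those of siFSCN1 by 0.22 within single pairs. The ratios did not overlap between groups in 18 pairs (16.4%), 12 of them lower in siFSCN1, with 15.8% among all 171 pairs tested, which include processed pseudogenes under the mean count of 20. After adjustment over those 171 pairs, 6 of the 110 passed at 0.05, with 6.43% of all pairs passing, and 1 passed with a change of at least 2-fold, with 3.51% of all pairs. The 95% interval of the difference lay within 1 of 0 for 98 pairs and within 0.5 of 0 for 38, and for the other 12 it reached a 2-fold difference from the parent.

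The largest pair difference was found among the copies of RPS2. RPS2 had 4174, 4064 and 4102 CPM in NC and 1824, 1532 and 1472 CPM in siFSCN1, a log2 fold change of -1.35 ± 0.06 (SE, n = 3 and 3). RPS2P5, the pseudogene with the highest mean count (4342), had 210, 201 and 194 CPM in NC and 85.7, 80.5 and 72.2 CPM in siFSCN1. Its fold change of -1.34 ± 0.05 (adjusted p = 2.15e-13, edgeR) was almost that of RPS2, and the pair difference was 0.02 with a 95% interval of -0.18 to 0.21. RPS2P46 had 2.21, 2.16 and 2.28 CPM in NC and 1.02, 0.698 and 0.530 CPM in siFSCN1, and its log2 fold change was -1.56 ± 0.24. Both of these copies fell without overlap between groups.

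RPS2P32, the copy with the most differences in the stretch above, had no change that passed. It had 0.865, 1.86 and 1.198 CPM in NC and 1.66, 1.397 and 0.912 CPM in siFSCN1, ranges that overlap, and a log2 fold change of 0.03 ± 0.29. Its ratio to RPS2 rose by 1.401 on the log2 scale (95% interval 0.86 to 1.94, adjusted p = 0.0014, limma). It was the single pair called, and it kept an adjusted p under 0.05 in all 11 alternatives, with differences of 1.14 to 1.69. The highest of these adjusted p-values was 0.0491 (limma). Over its length RPS2P32 is 87.2% identical to RPS2 and none of its 743 windows of 150 bases occurs in RPS2, while 129 of the 730 windows of RPS2P5 and 7 of the 734 windows of RPS2P46 do. RPS2P32 lies in no other annotated gene.

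The 6 pseudogenes of RPSA did not all pass in the same direction. RPSA changed by -0.21 ± 0.04 on the log2 scale, a fall that is -0.03 with library totals. RPSAP58, RPSAP19 and RPSAP47 passed as lower (-0.36, -0.32 and -0.27), while RPSAP12 and RPSAP15 had -0.27 and -0.22 and did not pass. With library totals these 3 did not pass either (-0.17, -0.13 and -0.08). RPSAP9 rose: it had 0.934, 1.18 and 0.847 CPM in NC and 1.60, 1.70 and 1.41 CPM in siFSCN1, with no overlap. Its log2 fold change was 0.68 ± 0.23 (adjusted p = 0.0145, edgeR), a rise that did not pass with DESeq2. Its ratio to RPSA rose by 0.86 (95% interval 0.44 to 1.29, adjusted p = 0.0131, limma). The ratio kept an adjusted p under 0.05 in all 11 alternatives, the highest being 0.0491. RPSAP9 is 97.5% identical to RPSA, within the 96.8% to 98.3% of the other placed copies, and none of its 739 windows occurs in RPSA, which also holds for RPSAP47.

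HNRNPA1, which encodes an RNA-binding protein that acts in splicing, fell by 0.37 ± 0.03 on the log2 scale, from 740 CPM ± 6.66 to 572 CPM ± 10.5 (SD, n = 3). HNRNPA1P7 and HNRNPA1P10, the copies nearest in sequence (99.1% and 99.5%), fell by 0.75 and 0.49. HNRNPA1P33 (95.9% identical) had a log2 fold change of 0.23 ± 0.21 and HNRNPA1P16 (94.1%) one of 0.63 ± 0.32, neither past the test. With library totals HNRNPA1P16 passed as higher (0.81, adjusted p = 0.0320, edgeR). HNRNPA1P16 had 0.761, 0.532 and 0.409 CPM in NC and 0.756, 1.09 and 0.765 CPM in siFSCN1, so the groups overlap slightly. Against HNRNPA1 its ratio rose by 0.96 (95% interval 0.37 to 1.54, adjusted p = 0.0447, limma), which passed in 4 of 11 alternatives, with adjusted p from 0.0185 to 0.156. The ratio of HNRNPA1P33 rose by 0.61 with an adjusted p of 0.0935. HNRNPA1P16 overlaps an exon of SRR on the same strand, a gene whose log2 fold change was -0.05.

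**Figure D3:**
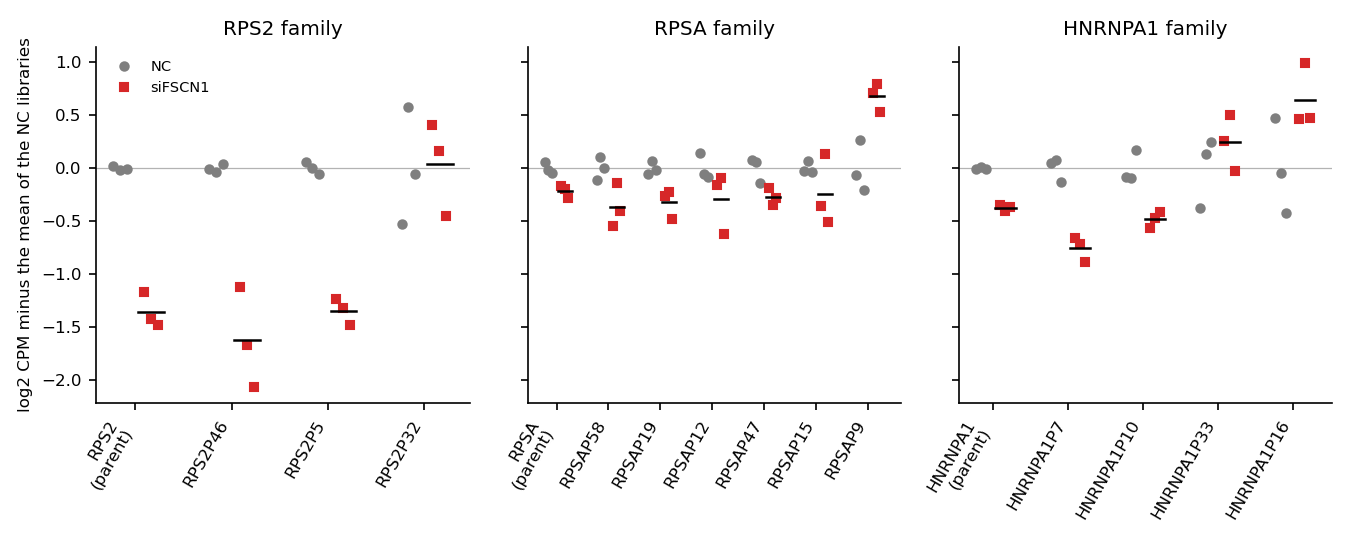
Log2 CPM of each library minus the mean of the 3 NC libraries (y axis) for RPS2, RPSA and HNRNPA1 and their pseudogenes, with NC as grey circles, siFSCN1 as red squares and the siFSCN1 mean as a black bar. RPS2P32, RPSAP9, HNRNPA1P33 and HNRNPA1P16 stand above the siFSCN1 level of their parents.

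The other 3 pairs past the adjusted p were GEMIN8P4, AK4P1 and RPL23AP42. GEMIN8P4, a copy of a gene of the SMN complex that assembles spliceosomal particles, had 1.45, 1.10 and 1.02 CPM in NC and 1.802, 2.00 and 2.21 CPM in siFSCN1. It rose by 0.75 ± 0.21 on the log2 scale (adjusted p = 0.00438, edgeR) while GEMIN8 had 0.03 ± 0.11, and the ratio rose by 0.69 (adjusted p = 0.0447, limma), which passed in 4 of 11 alternatives (0.0235 to 0.243). Of the pairs that passed it had the second lowest identity, 92.6%.

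AK4P1 and RPL23AP42 departed downwards although they are 99.7% and 99.6% identical to their parents. AK4, a mitochondrial adenylate kinase, rose by 0.93 ± 0.05 on the log2 scale from 52.7 to 100.5 CPM, the largest rise among the parents. AK4P1 had 3.53, 1.86 and 1.93 CPM in NC and 2.33, 2.34 and 2.83 CPM in siFSCN1 and no change that passed (0.04 ± 0.22). Its ratio to AK4 fell by 0.84 (95% interval -1.26 to -0.42, adjusted p = 0.0131, limma). NC replicate 1 lay apart from the other 2, and without it the difference was -0.58 with an adjusted p of 0.0798 (0.000165 to 0.109 over 11 alternatives). RPL23AP42, with 25.7, 28.4 and 27.7 CPM in NC and 20.1, 18.9 and 15.7 CPM in siFSCN1, fell by 0.58 where RPL23A fell by 0.19. With library totals the change of RPL23A was -0.0010 (adjusted p = 0.982, edgeR). The ratio of this pair fell by 0.39 (adjusted p = 0.0297, limma), which passed in 7 of 11 alternatives (0.0160 to 0.140).

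By sequence identity, for 17 pairs under 97% identity the median size of the difference was 0.30 and 8 differences were positive. It was 0.17 for 59 pairs from 97% to under 99%, with 12 positive, and 0.20 for 33 pairs of 99% and over, with 3 positive. The pairs of low identity also had lower mean counts, a median of 42.3 against 51.3 and 106.5. Across 109 pairs Spearman's rho between identity and the size of the difference was -0.07, and that between mean count and size was -0.26 (110 pairs), both as descriptions across genes.

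**Figure D4:**
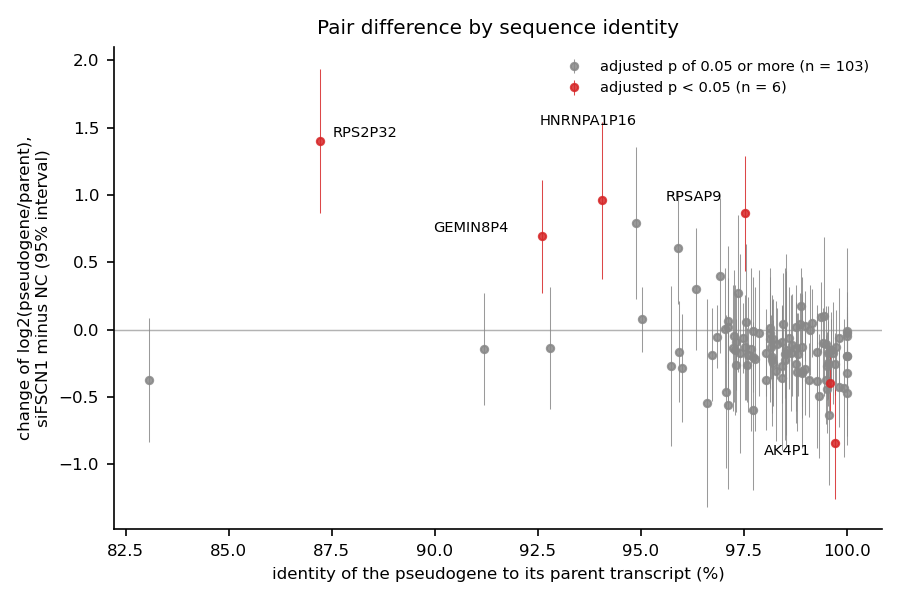
Change of log2(pseudogene/parent), siFSCN1 minus NC (y axis, bars are 95% intervals), against the identity of the pseudogene to its parent transcript in percent (x axis) for 109 pairs, with the 6 pairs of adjusted p under 0.05 in red. Points at 97% and above gather just below 0, and 4 of the red points lie above 0.

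Of the 10 parents with at least 3 pseudogenes in the set, the ranges for those not yet given were narrow. The 6 copies of FTH1 lay between -0.74 and -0.12 (FTH1 -0.45), those of PPIA between -0.70 and -0.22 (PPIA -0.48) and those of EEF1A1, which brings aminoacyl-tRNA to the ribosome, between -0.49 and -0.23 (EEF1A1 -0.22, or -0.04 with library totals). The copies of RPL13A, RPL21, RPL7 and RPS7 lay between -0.76 and -0.41, and their parents between -0.60 and -0.32. In each of these 7 families of 3 or more, the range of pair differences stayed within -0.29 and 0.40, and no pair passed the test. A family shares its parent, so its pairs are not independent of each other.

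The pseudogenes with the most reads were, after RPS2P5, EEF1A1P5 (mean count 2674), RPS28P7 (2631), RPL23AP42 (715), RPL13AP5 (707) and RP11-466H18.1 (669). EEF1A1P5 had 85.9, 98.8 and 112.0 CPM in NC and 66.2, 75.5 and 69.8 CPM in siFSCN1, and fell by 0.49 ± 0.07 on the log2 scale. RPL13AP5 fell from 27.2 CPM ± 2.67 to 18.0 CPM ± 2.64 (SD, n = 3), a log2 fold change of -0.59. RP11-466H18.1, identical to a part of RPL36A over all 321 bases and placed in an intron of PLEKHA7 on the same strand, had 24.3, 25.9 and 23.6 CPM in NC and 17.8, 19.9 and 16.1 CPM in siFSCN1. It fell by 0.45, where RPL36A had -0.30 and PLEKHA7 0.19.

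RPS28P7 had 2519, 2301 and 3077 counts in NC and 2991, 2655 and 2245 in siFSCN1, beside 6132, 5327 and 7348 and then 6772, 6226 and 6258 counts of RPS28. The log2 fold change was -0.18 ± 0.07, which is 0.01 with library totals, against -0.14 for RPS28, and the pair difference was -0.05 (95% interval -0.26 to 0.17). Since the sequences are identical, the split of counts between the pair is uncertain. On the deposited FPKM scale, which divides by gene length, RPS28P7 stood at 424% of RPS28 in NC, the only pseudogene above its parent there. The median pseudogene stood at 1.97% of its parent, 35 of 110 were under 1% and 14 reached 10%.

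Among the pseudogenes that fell by at least 2-fold, EIF5AP4 fell most. EIF5A, a translation factor that carries the modified residue hypusine, fell from 1139, 1138 and 1145 CPM in NC to 328, 283 and 277 CPM in siFSCN1. EIF5AP4 (chr10:80247219-80247683) had 1.14, 1.18 and 1.29 CPM in NC and 0.204, 0.364 and 0.147 CPM in siFSCN1, a log2 fold change of -2.33 ± 0.35 beside -1.95 for EIF5A. Its best sequence match was EIF5AL1, an intronless relative of EIF5A, at -2.04. FABP5P7, identical to FABP5 (a fatty acid-binding protein) over 405 bases, had 1.56, 2.09 and 1.55 CPM in NC and 0.698, 0.789 and 0.530 CPM in siFSCN1 and fell by 1.35, where FABP5 fell by 0.97. None of these pair differences passed the test.

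VDAC1P1, FTLP14 and CACYBPP2 lay near the 2-fold limit with -1.13, -1.07 and -1.03. Their parents are VDAC1 (-1.01), a channel of the outer mitochondrial membrane, FTL (-0.64), the ferritin light chain, and CACYBP (-0.83), a binding partner of ubiquitin ligases. CACYBPP2, outside the rule for named genes, completes the 9. With library totals all 3 came under 2-fold (-0.94, -0.88 and -0.84 in that order). On log2(FPKM + 0.1) VDAC1P1 had -0.97 and FTLP14 -0.87, and FTLP14 had -0.94 without NC replicate 1 and -0.95 without siFSCN1 replicate 2. VDAC1P1 had 0.174 CPM in siFSCN1 replicate 1 beside 0.577 and 0.677 in the other 2, and without that library the log2 fold change was -0.74 with an adjusted p of 0.0592 (0.00172 to 0.0592 over 12 alternatives). FTLP14 lies in an intron of CDH1 on the same strand. CDH1, the gene of E-cadherin, rose by 1.35 on the log2 scale, while FTLP14 had 1.83, 1.37 and 1.46 CPM in NC and 0.901, 0.607 and 0.706 CPM in siFSCN1.

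TUBAP2 and RP11-887P2.3 also fell by at least 2-fold but have no parent in the table by name. TUBAP2, whose best match is the alpha-tubulin gene TUBA1B (95.8%), had 1.28, 1.14 and 0.993 CPM in NC and 0.378, 0.364 and 0.206 CPM in siFSCN1. Its log2 fold change was -1.83 ± 0.33 and that of TUBA1B -0.89. RP11-887P2.3, which differs at 1 of 765 bases from the glycolytic enzyme gene PGAM1, had 3.67, 3.84 and 3.04 CPM in NC and 1.02, 1.85 and 1.18 CPM in siFSCN1. It fell by 1.38 and PGAM1 by 0.96. The difference to a sequence match was not tested for pseudogenes without a parent in the name.

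All 7 pseudogenes that rose by at least 2-fold lack a parent in their name. They are 14.3% of the 49 pseudogenes of that kind, near the 11.7% called higher among all genes tested. AC112229.1 (chr2:110360608-110363737, minus strand, in no other gene) rose most, from 0.727, 0.874 and 0.935 CPM in NC to 4.42, 5.47 and 6.36 CPM in siFSCN1. The log2 fold change was 2.67 ± 0.19 (adjusted p = 5.42e-10, edgeR). It is 92.8% identical to the zinc finger gene ZNF532, whose own change was 0.70. RP11-157G21.2, 96.9% identical to MPHOSPH8 (a reader of histone methylation, 0.19) and placed in an intron of CD163L1 on the same strand, had 2, 5 and 16 counts in NC and 31, 38 and 39 in siFSCN1. It rose by 2.05 ± 0.42 on the log2 scale, by 3.02 without NC replicate 3 and by 1.62 without NC replicate 1. CTC-471F3.5, 93.3% identical to the mRNA decay factor gene PATL1 (-0.06), rose from 0.692, 0.570 and 0.789 CPM in NC to 1.31, 1.97 and 1.77 CPM in siFSCN1, by 1.28 ± 0.26.

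Another 3 of the 7 lie side by side on chromosome 7. RP11-274B21.2 (chr7:128651185-128652334), RP11-274B21.4 (chr7:128652841-128653243) and RP11-274B21.3 (chr7:128653969-128654722) are on the plus strand, overlap exons of the long noncoding RNA gene ENSG00000242588 on the same strand, and matched no protein-coding transcript. RP11-274B21.2 had 0.450, 0.798 and 0.409 CPM in NC and 2.35, 1.94 and 2.35 CPM in siFSCN1. The log2 fold changes were 2.03 ± 0.26, 1.47 ± 0.23 and 1.25 ± 0.17 in that order, each without overlap between groups. Reads from the long noncoding RNA and from these pseudogenes cannot be told apart in the counts, and the 3 are not independent observations.

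The last of the 7, RP5-1056L3.3, lay at the limit. It had 0.311, 0.570 and 0.409 CPM in NC and 0.872, 0.881 and 0.824 CPM in siFSCN1, and a log2 fold change of 1.00 ± 0.32 (adjusted p = 0.0104, edgeR). With DESeq2 the adjusted p was 0.0664 (0.000979 to 0.0664 over 12 alternatives), and it came under 2-fold with DESeq2 (0.98), with RLE scaling (0.99), with no filter beyond 1 count (0.99) and without NC replicate 1 (0.82), NC replicate 3 (0.96), siFSCN1 replicate 1 (0.98) or siFSCN1 replicate 2 (0.98). RP5-1056L3.3 is 95.4% identical to RPS14 (-0.35) and lies in an intron of MICOS10, a gene of the mitochondrial cristae that changed by -1.95, on the same strand.

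**Figure D5:**
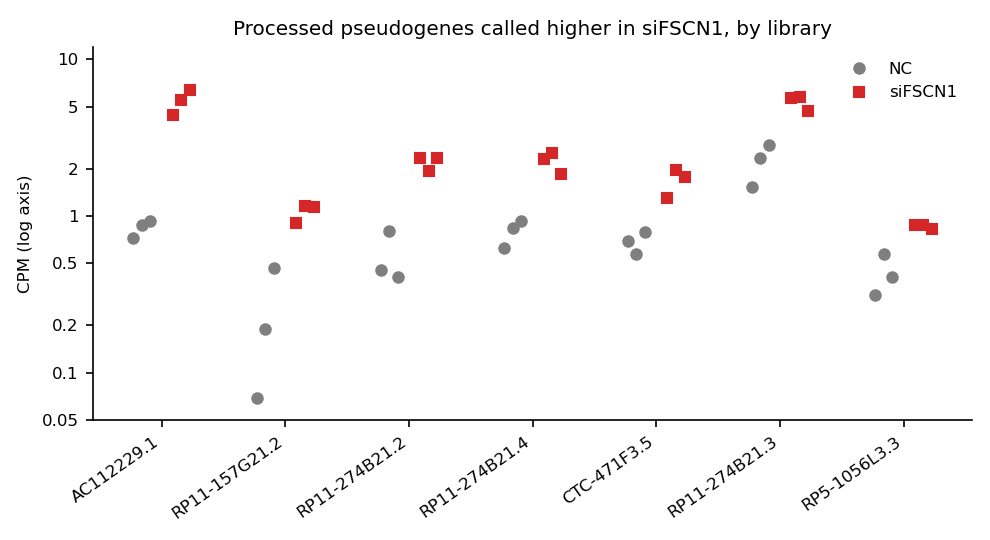
CPM on a log axis (y axis) of the 7 pseudogenes called higher by at least 2-fold, with NC libraries as grey circles and siFSCN1 libraries as red squares, left to right within each group in the order of replicates. In every pseudogene the siFSCN1 libraries lie above the NC libraries, by the most in AC112229.1.

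For the 49 pseudogenes without a parent in the name, 45 matched a protein-coding transcript and 44 of these matches were tested genes. Across the 44 the difference in log2 fold change between pseudogene and match had a median of -0.02 (-0.94 to 1.97), with a Pearson r of 0.62 as a description. Of the 44, 25 matched a ribosomal protein gene. These 25 had a median of -0.39, from -0.88 to 1.00, and 20 lay within 0.5 of their match. One that did not, RP11-356M20.1, is 85.2% identical to RPL7A and had 0.39 where RPL7A had -0.51. 

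Of position, 92 of the 158 placed pseudogenes overlap another annotated gene and 66 none. The median of those in no gene was -0.52, of those in an intron on the same strand -0.49 (35) and on the opposite strand -0.49 (37). For 56 pseudogenes the overlapping gene was itself tested, and the Pearson r between their fold changes was -0.18, a description across genes of the same libraries. Of these pseudogenes, 22 lay in an intron and 4 in an exon of a gene on the same strand. On the opposite strand these numbers were 22 and 8, and the correlations were not split by strand. For the 36 that have both a tested overlapping gene and a parent by name, r was 0.70 with the parent and -0.03 with the overlapping gene, and the fold change of the pseudogene was closer to that of the parent in 28. HNRNPA1P7, for example, fell by 0.75 inside an intron of GAREM1, which rose by 1.11. The 8 that overlap an exon on the same strand had a median of 0.56, and 3 of them are the neighbours on chromosome 7.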

How the data were processed

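Polyadenylated RNA of A549 cells was sequenced in 6 libraries, grouped by the sample titles. The authors deposited raw counts per gene, and FPKM, which scales counts to gene length and depth. By the study's methods reads were aligned to GRCh38 with HISAT2 and uniquely mapped reads kept, whereas the labels name TopHat2. By the labels the libraries kept strand. The counting tool, whether it used strand and the annotation behind the gene counts are not given in the sources used here (an Ensembl release is named for other data of the study). Counts of a pseudogene and an overlapping gene, or a near-identical parent, are therefore uncertain.

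From the deposited counts, genes passing edgeR's filterByExpr (17076) were TMM-scaled and compared in edgeR 4.0.16 under R 4.3.3 (quasi-likelihood test), with Benjamini-Hochberg adjustment and a call at adjusted p under 0.05 and 2-fold. Pairs were tested with limma 3.58.1 on log2 CPM (prior count 2) of pseudogene minus parent, over 171 pairs. Sequences were aligned with blastn 2.17.0, plus strand, to GENCODE v44 protein-coding transcripts. The fits were tested on simulated data.

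The pseudogenes, gene groups and tests were chosen with earlier results of these data known. Named genes are the 8 largest called rises and falls without overlap, called pairs, the 6 highest mean counts, families of the 5 parents with the most copies and all tied with them, copies of FSCN1, keratin 8 or 18 or actin genes, and the lowest counts. Other genes in the text were chosen after their values were seen. The sequences of 1 family are not reported here.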

Additional observations from a re-analysis of the deposited data

How the results depend on the processing

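The alternatives were RLE scaling, library totals, DESeq2 1.42.0, no filter beyond 1 count, limma on log2(FPKM + 0.1), leaving out each library, and for pairs a prior count of 0.5, an edgeR fit of both genes, pairs that align, and at least 10 counts per library. The median log2 fold change of the pseudogenes was -0.32 with library totals and -0.33 on log2(FPKM + 0.1), and -0.56 to -0.46 without 1 library. That of the parents was -0.21 and -0.23, and 1 parent, AK4, was then called higher in each. Without 1 library, 10 to 14 pseudogenes were called lower and 1 to 2 pairs were called. The edgeR fit of both genes called 2 pairs, the second HNRNPA1P16. At a minimum mean count of 100 there were 58 pseudogenes, of which 3 were called, 2 higher and 1 lower, and 0 pairs, with 1 past the adjusted p. With library totals the scaling itself moved all genes, their median from 0.03 to 0.22. The cause of the other shifts was not tested, beyond the smaller number of genes in the last. RPS2P32, which has no change that passed, had -0.0047 with DESeq2 and ranged from -0.20 to 0.34 without 1 library, RPS28P7 had 0.0067 with library totals and ATF4P3 ranged from -0.032 to 0.40 without 1 library, the lowest without NC replicate 1.

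Same-numbered NC and siFSCN1 libraries did not deviate together (correlations of -0.03, 0.04 and -0.08). With 3 libraries a group this check cannot exclude that the numbers pair them. With the replicate block 16 pseudogenes and 1 pair were called, and 2 pairs in place of 6 passed the adjusted p. The median pair difference stayed at -0.15, which was fixed in advance, since each number holds 1 library of each group. Depth limits the low pairs: 71 pseudogenes had a mean count under 50.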
